A study of Mus musculus with 17 samples.

Results

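Macrophages in melanoma-conditioned medium with KCl were compared between hypertonic and isotonic medium. The comparison takes 6 of the 17 libraries of the series, chosen by their strain and treatment labels: 3 from cells given conditioned medium with added KCl, and 3 from cells given conditioned medium with KCl that the labels call isotonic. All were bone marrow-derived macrophages, primary cells grown from mouse marrow. The conditioned medium came from B16F10, a mouse melanoma line. The cells with added KCl were from C57BL/6J mice, and the isotonic ones were from Kcnj2f/f mice without Cre, in which the potassium channel gene Kcnj2 is flanked by loxP sites. Strain and tonicity therefore change together here and cannot be told apart. Of these 2 groups, the labels call only the floxed one isotonic. The other group is called hypertonic because salt was added to it without that word. The protocol text gives 6 h of treatment and a final KCl or NaCl concentration of 40 mM, and names C57BL/6J mice only. How the medium was made isotonic, and whether its KCl was also at 40 mM, is not given in the sources used here. Set beside them are 2 NaCl libraries and 3 libraries of conditioned medium alone, all C57BL/6J. These form a contrast in tonicity that has no added KCl and no library in common with the first. NaCl adds sodium and chloride as well as tonicity, and whether sodium differs in the first contrast is not given. A further 3 isotonic KCl libraries came from Lyz2-Cre-Kcnj2f/f mice, in which Cre expressed in myeloid cells deletes Kcnj2. Animal ages and pooling are not given, and replicates are not stated to be separate animals or cultures. The p-values therefore reflect the spread among these libraries alone, and that spread may be technical.

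Salt added to a medium draws water out of cells. Cells recover their volume by taking up ions and then replace those ions with organic osmolytes such as myo-inositol, betaine, taurine and sorbitol, through transporters and enzymes that the transcription factor NFAT5 switches on. Raised potassium outside the cell also depolarises the membrane whether or not the medium is hypertonic. Macrophages are known to respond to hypertonic salt through NFAT5 and through changes in inflammatory genes.

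Library totals were 13503869 to 17048265 counts with KCl and 15618236 to 16994998 counts with isotonic KCl. Levels below are CPM, counts relative to the library total, scaled by TMM, a normalisation that sets the bulk of genes equal between libraries. They are given for libraries 1, 2 and 3 in that order. The libraries of both KCl groups differed from one another more than those of NaCl or of conditioned medium alone did. The biological coefficient of variation was 24.4% in KCl against isotonic KCl and 5.64% in NaCl against conditioned medium alone. The slope of log counts on transcript length also varied, at −0.087 to 0.033 with KCl and −0.20 to 0.14 with isotonic KCl. None of the 12 macrophage identity markers passed the test, and their summed level was 27900 to 32000 CPM with KCl, against 28900 to 31500 CPM with isotonic KCl. Markers of melanoma cells summed to 0.624 to 1.14 CPM with KCl, against 0.854 to 1.20 CPM with isotonic KCl, and 3 of the 7 had 0 counts in both. Stromal markers, 9 tested with none called, summed to 552 to 897 CPM with KCl, against 458 to 900 CPM with isotonic KCl.

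Slc6a12, the betaine transporter, carries in its promoter the letters of the tonicity element, the site that NFAT5 binds, and it is shown because it was the named gene with such a match. The RefSeq promoter (GRCm38.p6, chr6:121342324-121342623, plus strand, 250 bases before to 50 after the start) reads 5′ to 3′, with the element in capitals:
Slc6a12: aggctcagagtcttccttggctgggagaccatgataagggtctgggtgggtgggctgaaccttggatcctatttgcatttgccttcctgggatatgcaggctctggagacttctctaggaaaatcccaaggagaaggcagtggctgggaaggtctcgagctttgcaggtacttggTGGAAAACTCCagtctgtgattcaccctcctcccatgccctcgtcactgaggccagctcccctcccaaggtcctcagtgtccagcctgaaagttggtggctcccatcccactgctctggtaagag
The element lies at positions −75 to −65 from the start, in 1 of 5 promoters listed for this gene. The tonicity element was searched on both strands and includes the core TGGAAA. It was found in 4.96% of all 32851 promoters of this length and the core alone in 21.4%. Of the 22 osmolyte genes listed below, 16 had a promoter in the table, and 2 of their 27 promoters (7.41%) held the element, in Slc6a12 and Pnpla6. Of the 46 genes named by rule, 35 had 44 promoters there, and 1 of these (2.27%) held it. A match is a description of these letters, and a lack of one says nothing about NFAT5 at these genes.

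With KCl the macrophages had more RNA for the osmolyte genes Slc5a3, Akr1b3, Slc6a12 and Slc38a2, for 6 NRF2 target genes and for Glul, which encodes glutamine synthetase, and less for the cytokine genes Il1a, Il1b, Il12a and Il12b, the receptor genes Marco and Fcgr2b and the guanylate-binding protein genes Gbp2, Gbp3, Gbp5 and Gbp7, than with isotonic KCl. By edgeR's quasi-likelihood test with Benjamini-Hochberg adjustment over all genes, the source of every adjusted p below, 1218 of 12876 genes tested (9.46%) passed the 0.05 threshold. Of these, 466 (3.62%) were higher with KCl and 752 (5.84%) lower, and 656 (5.09%) differed at least 2-fold. The libraries of the 2 groups did not overlap in 4151 genes (32.2%). The median log2 fold change over all genes tested was 0.01. The count rests on few libraries: it was 80 without KCl library 1, 233 without KCl library 2, 368 without KCl library 3 and 132 without isotonic library 3, against 1437 without isotonic library 1 and 829 without isotonic library 2. Fewer cells of a type and less RNA per cell cannot be told apart in bulk RNA.

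Of 22 osmolyte and NFAT5 target genes, 19 were tested, 7 rose with KCl and 1 fell, where 3.62% of all genes rose. Their median log2 fold change was 0.34. Slc5a3, which imports myo-inositol (chr16:92058322-92087473 on GRCm38), had 129, 140.0 and 98.9 CPM in the KCl libraries, against 22.9, 28.1 and 24.2 CPM in the isotonic libraries. Every KCl library lay above every isotonic library, and the gene rose by a log2 fold change of 2.29, SE 0.18, adjusted p = 0.00200. It shares part of its span with Mrps6 on the same strand, so how its reads were divided is uncertain. Akr1b3, the aldose reductase that makes sorbitol (chr6:34302434-34317478), had 365, 317 and 290.5 CPM with KCl and 71.2, 93.2 and 80.3 CPM with isotonic KCl. It also rose without overlap (log2 fold change 1.995, SE 0.16, adjusted p = 0.00222), and its reads could include those of an antisense gene, since the strand setting is not given in the sources used here. Slc6a12 (chr6:121343076-121365775) had 69.2, 62.0 and 80.7 CPM with KCl and 39.5, 28.0 and 34.6 CPM with isotonic KCl. The groups did not overlap, but the rise was smaller (log2 fold change 1.06, SE 0.18, adjusted p = 0.0191) and lost its call without any 1 of the KCl libraries or isotonic library 3 (adjusted p = 0.0531 to 0.110). Slc38a2, a carrier of small neutral amino acids, had 441, 426 and 448 CPM with KCl and 303, 270.4 and 247 CPM with isotonic KCl. Its log2 fold change was 0.69, SE 0.13, adjusted p = 0.0254, and the call was lost without any 1 library other than isotonic library 1 (adjusted p = 0.0571 to 0.155) and under total-count scaling (adjusted p = 0.0601).

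The stress-induced Hsp70 gene Hspa1b had 18.6, 17.9 and 26.7 CPM with KCl and 3.74, 2.56 and 2.89 CPM with isotonic KCl. It was among the strongest rises (log2 fold change 2.78, SE 0.25, adjusted p = 0.00292). In conditioned medium alone it had 10.6, 8.24 and 9.66 CPM, between the KCl and the isotonic levels, and in the isotonic knockout 1.58, 1.825 and 2.38 CPM. Its near-identical neighbour Hspa1a, with which it can share reads, had a log2 fold change of 1.97, SE 0.31, adjusted p = 0.0144. The Hsp110 family gene Hspa4l rose too (0.89, adjusted p = 0.0454), while Slc7a5, an exchanger of large neutral amino acids, fell (−1.24, adjusted p = 0.0264). Nfat5 itself had 56.1, 62.1 and 75.7 CPM with KCl and 59.4, 23.1 and 32.7 CPM with isotonic KCl. Isotonic library 1 stood among the KCl libraries and the other 2 isotonic libraries lay below them, and Nfat5 did not pass (log2 fold change 0.76, SE 0.33, adjusted p = 0.203). Without isotonic library 1 its log2 fold change was 1.21 with an adjusted p of 0.0201. That library had a length slope of 0.14, against −0.20 and −0.11 in isotonic libraries 2 and 3. With the slope as a covariate the adjusted p of Nfat5 was 2.24e-04. Of 16 alternative settings, however, 12 left Nfat5 uncalled and 4 called it. Its log2 fold change ranged from 0.50 to 1.21 over them, and its adjusted p reached 0.474. Whether the slope plays a part was not tested. The taurine transporter gene Slc6a6 had 329.6, 348 and 579 CPM with KCl and 578, 217 and 319 CPM with isotonic KCl, in the same order of isotonic libraries, and gave a log2 fold change of 0.19, SE 0.38, adjusted p = 0.817. The count of osmolyte genes that rose was 3 without any 1 of the KCl libraries or without isotonic library 3.

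**Figure D1:**
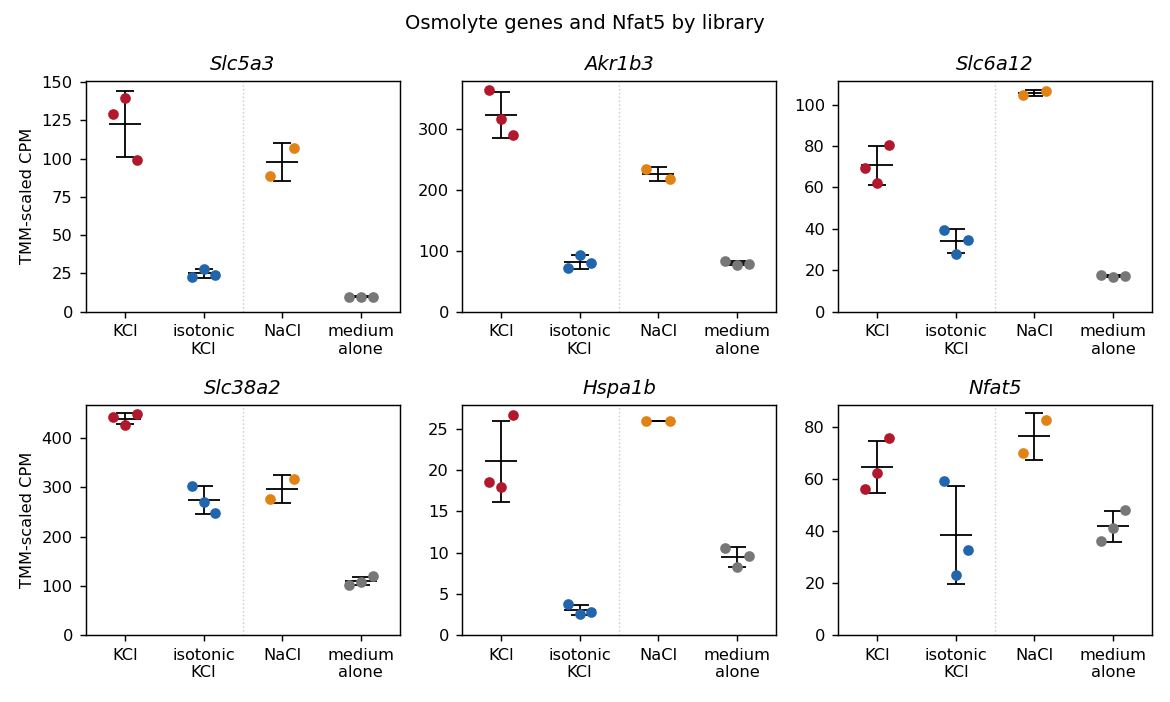
TMM-scaled CPM of 6 genes in each library, with mean and SD bars, for KCl (3 libraries), isotonic KCl (3), NaCl (2) and conditioned medium alone (3). Slc5a3, Akr1b3, Slc6a12, Slc38a2 and Hspa1b are higher in every KCl library than in any isotonic library and in both NaCl libraries than in medium alone, whereas 1 isotonic library of Nfat5 reaches the KCl libraries.

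The osmolyte list also moved in the contrast without added KCl. With NaCl, 12 of 19 osmolyte genes rose and 3 fell, where 23.2% of all genes rose and 23.5% fell, with a median log2 fold change of 0.69. Slc5a3 had 89.0 and 107 CPM with NaCl and 9.92, 9.90 and 9.31 CPM in conditioned medium alone, a log2 fold change of 3.34 (adjusted p = 5.33e-17). Slc6a12 had 105 and 106 CPM with NaCl and 17.8, 16.9 and 17.4 CPM in conditioned medium alone (log2 fold change 2.62, adjusted p = 6.23e-17). Both were thus lower in medium alone than in isotonic KCl, while Akr1b3, at 235 and 218 CPM with NaCl and 83.5, 77.0 and 78.5 CPM in conditioned medium alone, was near its isotonic level. The test of the difference between the contrasts was −1.55, SE 0.20, adjusted p = 0.0159 for Slc6a12 and −1.04, SE 0.22, adjusted p = 0.0814 for Slc5a3, on the log2 scale. That test is fragile, as the counts given with it further on show.

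Kcnj2, the inward rectifier channel whose gene is floxed in the isotonic cells, had 292, 319 and 311 CPM with KCl and 173, 139 and 147 CPM with isotonic KCl. The deleted group had 19.7, 24.4 and 29.4 CPM, below every other library, which checks those labels. Kcnj2 was higher with KCl by a log2 fold change of 1.01, SE 0.14, adjusted p = 0.00847, and the call was lost without KCl library 1 or isotonic library 3 (adjusted p = 0.0653 and 0.0808). The isotonic cells carry the floxed allele of this very gene, and whether that alters its RNA was not tested. In NaCl against medium alone it had 223 and 267 CPM with NaCl and 78.3, 80.7 and 81.4 CPM in conditioned medium alone, with a log2 fold change of 1.62 (adjusted p = 2.85e-14). The background potassium channel Kcnk13 rose as well (0.73, adjusted p = 0.0283). These were the 2 calls among 6 potassium channel genes tested, where 3.62% of all genes rose and 5.84% fell. Among 24 genes of chloride and cation transport for cell volume, 0 rose and 2 fell (8.33%), near the share over all genes. The 2 were Aqp9, an aquaglyceroporin (−1.35, adjusted p = 0.00869), and Lrrc8c, a subunit of volume-regulated anion channels (−0.99, adjusted p = 0.0449). Both lists had 0 calls by edgeR without KCl library 1 or isotonic library 3.

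Of 28 cytokine and chemokine genes tested, 14 fell with KCl and 0 rose, where 5.84% of all genes fell, and their median log2 fold change was −0.85. Il1b, the precursor of interleukin-1 beta (chr2:129364570-129371139), had 703, 691 and 707 CPM with KCl and 2165, 2447 and 2422 CPM with isotonic KCl. The KCl libraries lay close together and far below the isotonic ones (log2 fold change −1.74, SE 0.14, adjusted p = 0.00200). Il1a, which encodes interleukin-1 alpha, had 57.1, 70.7 and 83.8 CPM with KCl and 474, 351 and 359 CPM with isotonic KCl and fell further (log2 fold change −2.48, SE 0.21, adjusted p = 0.00242). Both genes have antisense neighbours whose reads cannot be parted from theirs if strand was not used. Il12a, the p35 subunit of interleukin-12, had 1.68, 2.85 and 3.56 CPM with KCl and 18.3, 19.6 and 21.2 CPM with isotonic KCl, again without overlap (log2 fold change −2.86, SE 0.28, adjusted p = 0.00355). The other subunit gene, Il12b, fell by 2.36 on the log2 scale (adjusted p = 0.0121), at low levels of 1.59 ± 0.221 CPM with KCl and 8.30 ± 3.57 CPM with isotonic KCl (SD, n = 3 each).

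Tnf, the gene of tumour necrosis factor, had 2195, 2293 and 2087 CPM with KCl and 3399, 3935 and 3740 CPM with isotonic KCl. Its fall was smaller (log2 fold change −0.75, SE 0.14, adjusted p = 0.0218) and lost its call without any 1 of the KCl libraries or isotonic library 3 (adjusted p = 0.0760 to 0.131). Il6 had 64.5, 96.3 and 39.4 CPM with KCl and 135, 365 and 243 CPM with isotonic KCl. The groups did not overlap, yet the spread was wide (log2 fold change −1.90, SE 0.43, adjusted p = 0.0379), and without any 1 library other than isotonic library 1 the adjusted p was 0.0582 to 0.161, and with no low-count filter 0.101. Cd40, the costimulatory receptor for CD40 ligand, had 57.7, 51.2 and 41.6 CPM with KCl and 185, 242 and 219 CPM with isotonic KCl and fell (log2 fold change −2.10, SE 0.18, adjusted p = 0.00247). The others that fell were Csf3 (−2.40), Il27 (−1.92), Il18 (−2.10), Lcn2 (−1.88), Saa3 (−2.34), Ccl3 (−0.86) and Ccl5 (−0.84), with adjusted p of 0.00341 to 0.0353. The neutrophil-attracting chemokines did not pass: Cxcl1 had 1264 ± 198 CPM with KCl and 1227 ± 303 CPM with isotonic KCl, and Cxcl2 7769 ± 1164 CPM with KCl and 7986 ± 1539 CPM with isotonic KCl (SD, n = 3 each; adjusted p = 0.929 and 0.933). Nos2, the inducible nitric oxide synthase, had 15.2, 14.1 and 25.2 CPM with KCl and 32.7, 7.52 and 14.3 CPM with isotonic KCl. Its isotonic libraries spanned all of its KCl libraries (log2 fold change 0.01, SE 0.51, adjusted p = 0.992). The count of cytokine genes that fell was 5, 8 and 9 without KCl library 1, 2 and 3, and 9 without isotonic library 3.

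With NaCl the list split, with 11 of 28 higher and 16 lower than in medium alone, where 23.2% of all genes were higher and 23.5% lower, and a median of −0.36. Il1b had 1911 and 1693 CPM with NaCl and 4057, 3958 and 3676 CPM in conditioned medium alone and fell (log2 fold change −1.10, adjusted p = 6.04e-13). Tnf had 3085 and 2954 CPM with NaCl and 2674, 2661 and 2617 CPM in conditioned medium alone, a small rise (log2 fold change 0.20, adjusted p = 7.21e-04). Il6 had 111 and 91.6 CPM with NaCl and 108, 102 and 89.5 CPM in conditioned medium alone (log2 fold change 0.04, adjusted p = 0.725). These Il6 levels lay below every floxed isotonic library and below the isotonic knockout libraries (234.5, 205.7 and 143.8 CPM). Cxcl1, Cxcl3 and Ptgs2, the gene of cyclooxygenase 2, rose with NaCl by log2 fold changes of 1.10, 1.20 and 1.11, against values of 0.04, 0.14 and 0.22 with KCl that did not pass. For these 3 genes the difference between the contrasts did not pass either (adjusted p = 0.150, 0.150 and 0.212).

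**Figure D2:**
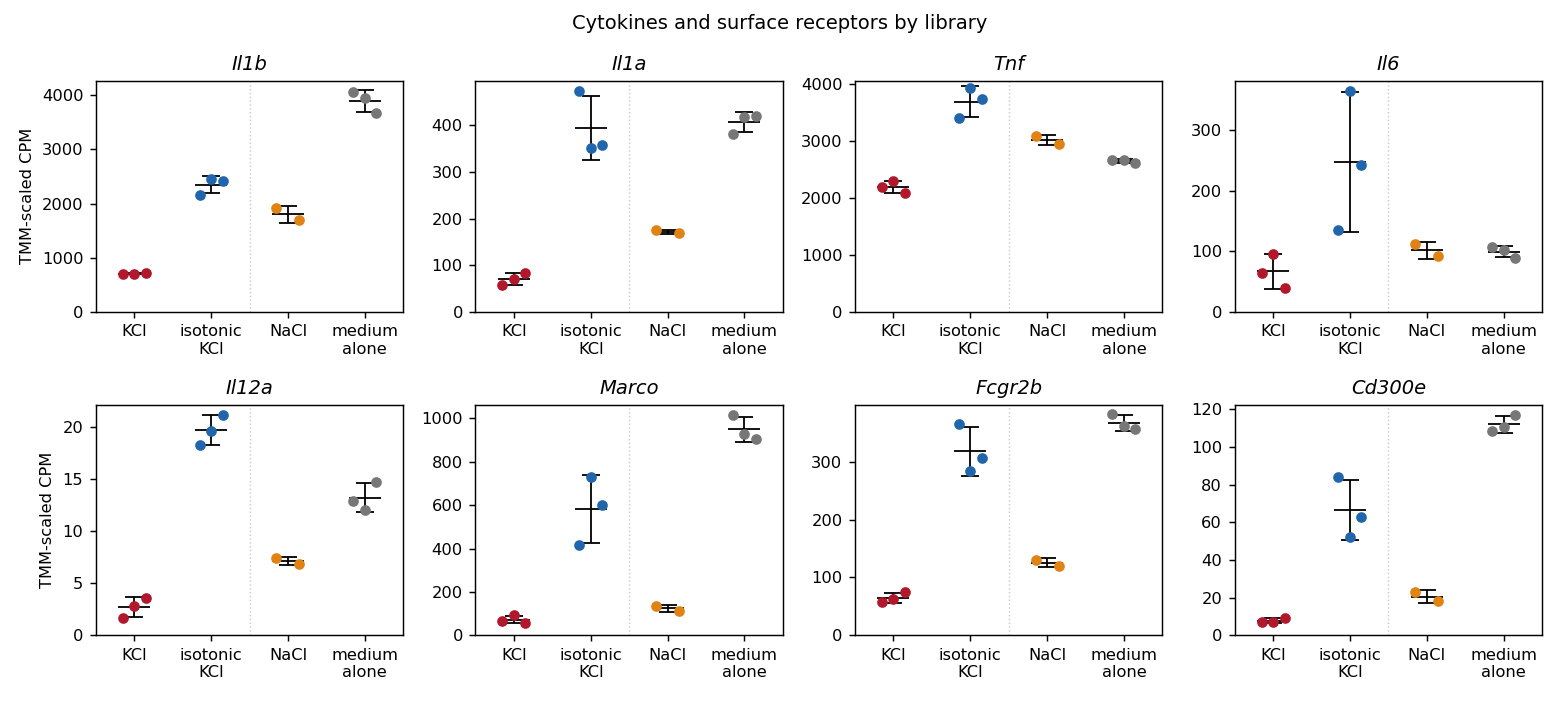
TMM-scaled CPM of 5 cytokine and 3 receptor genes in each library, with mean and SD bars, in the groups KCl, isotonic KCl, NaCl and conditioned medium alone. All 8 genes are lower in every KCl library than in any isotonic library, and Tnf and Il6 are the genes here that are not lower with NaCl than in medium alone.

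Of 32 surface receptor and myeloid signalling genes tested, 11 fell with KCl and 1 rose, where 5.84% of all genes fell and 3.62% rose. The median log2 fold change of the list was −0.22. Marco, a scavenger receptor for bacteria and particles (chr1:120474538-120505024), had 68.3, 92.3 and 58.2 CPM with KCl and 419, 730.5 and 602 CPM with isotonic KCl. Every KCl library was far below the isotonic ones (log2 fold change −3.00, SE 0.27, adjusted p = 0.00280). Fcgr2b, the inhibitory Fc receptor for IgG, had 57.5, 62.8 and 74.8 CPM with KCl and 364, 284 and 306 CPM with isotonic KCl (log2 fold change −2.28, SE 0.17, adjusted p = 0.00200). Cd300e, an activating receptor of myeloid cells, had 6.92, 7.13 and 9.38 CPM with KCl and 84.0, 52.5 and 63.1 CPM with isotonic KCl (log2 fold change −3.08, SE 0.24, adjusted p = 0.00200). These fell in every setting tried. Fpr2, a formyl peptide receptor gene that overlaps Fpr3, had 126, 125 and 114 CPM with KCl and 391, 418 and 400.1 CPM with isotonic KCl (log2 fold change −1.72, SE 0.12, adjusted p = 0.00170). C5ar1, the receptor for complement C5a, had a log2 fold change of −1.504 (adjusted p = 0.00214) and Fpr1 one of −1.24 (adjusted p = 0.0203).

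The Src-family kinase gene Fgr had 3.69, 2.94 and 5.94 CPM with KCl and 34.8, 18.3 and 26.0 CPM with isotonic KCl and fell (log2 fold change −2.63, SE 0.34, adjusted p = 0.00790), although without KCl library 1 its adjusted p was 0.0686. Its relative Lyn fell less (−1.12, adjusted p = 0.0209). The chemokine receptor gene Cxcr4 rose (1.16, adjusted p = 0.0175), at 27.8 ± 4.57 CPM with KCl and 12.4 ± 1.88 CPM with isotonic KCl (SD, n = 3 each). Cd14 and Tlr2, which sense bacterial products, did not pass (−0.21 and −0.13, adjusted p = 0.602 and 0.577). With NaCl, 18 of 33 genes of the list fell and 8 rose, where 23.5% of all genes fell and 23.2% rose. Marco had 136 and 113 CPM with NaCl and 1015, 928 and 906 CPM in conditioned medium alone. Fgr had 8.33 and 8.63 CPM with NaCl and 80.8, 77.2 and 88.5 CPM in conditioned medium alone. Their log2 fold changes were −2.92 and −3.26 with NaCl, against −3.00 and −2.63 with KCl. The difference between the contrasts was −0.07 for Marco (SE 0.31, adjusted p = 0.981) and 0.65 for Fgr (SE 0.38, adjusted p = 0.677). Without KCl library 1, 5 genes of the list fell, with 7 and 6 without KCl library 2 and isotonic library 3.

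Of 34 interferon-stimulated genes tested, 7 fell and 2 rose with KCl, where 5.84% of all genes fell and 3.62% rose. The median log2 fold change of the list was −0.28. Gbp7, an interferon-induced GTPase, had 19.41, 19.35 and 22.6 CPM with KCl and 86.6, 63.4 and 64.7 CPM with isotonic KCl (log2 fold change −1.80, SE 0.18, adjusted p = 0.00355). Gbp3 had 66.3, 67.5 and 65.2 CPM with KCl and 146, 162 and 146 CPM with isotonic KCl, with little spread in the KCl group (log2 fold change −1.18, SE 0.12, adjusted p = 0.00382). Its adjusted p was 0.0508 without KCl library 1. Zbp1, a sensor of Z-form nucleic acids, had 11.01, 9.90 and 9.31 CPM with KCl and 26.8, 32.4 and 33.8 CPM with isotonic KCl (log2 fold change −1.62, SE 0.17, adjusted p = 0.00382). The groups did not overlap in any of these. The Gbp genes are close paralogs, so reads may be shared among them. Gbp5, Gbp2 and Dhx58 fell by 1.59, 1.37 and 1.09 on the log2 scale, and Rsad2 rose (0.67, adjusted p = 0.0248). Ifnb1, which encodes interferon beta itself, passed as higher from near nothing, at 1.55 ± 0.553 CPM with KCl and 0.256 ± 0.164 CPM with isotonic KCl (SD, n = 3 each; log2 fold change 2.53, adjusted p = 0.0360). Classical members such as Isg15, Ifit1 and Irf9 had log2 fold changes of 0.06, 0.14 and 0.01 and did not pass. The number that fell was 2 without KCl library 1, 4 without KCl library 2 and 4 without isotonic library 3, and the number that rose was 0 without KCl library 1, 2 or 3 or isotonic library 2 or 3 and 1 without isotonic library 1.

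In NaCl against medium alone the interferon list lay higher, with 22 of 33 genes called higher, 6 lower and a median of 0.43, where 23.2% of all genes were higher and 23.5% lower. Gbp7 had 35.9 and 36.6 CPM with NaCl and 32.9, 40.4 and 42.9 CPM in conditioned medium alone. Gbp3 had 82.1 and 72.8 CPM with NaCl and 74.3, 70.0 and 68.1 CPM in conditioned medium alone. Neither passed (adjusted p = 0.490 and 0.113). The isotonic knockout libraries had 55.7, 58.6 and 72.6 CPM of Gbp7 and 174, 176 and 173 CPM of Gbp3. Gbp3 in medium alone was thus near its KCl level and below both isotonic groups. Gbp7 in medium alone lay between the KCl and the isotonic levels. In the direct test of the difference between the contrasts, 9 of 34 were called lower and 0 higher, where 0.416% of all genes were lower and 0.122% higher. They included Gbp3 (−1.31, SE 0.14, adjusted p = 0.00589), Gbp7 (−1.71, SE 0.22, adjusted p = 0.0159), Irf1 (−0.84), Ifih1 (−0.89) and Irgm1 (−0.97). The difference test made 0 calls over all genes without NaCl library 1 or 2 or without conditioned medium library 1 or 3, so these calls do not stand without those libraries. It also takes a single spread for groups that differed in spread, so its SE and adjusted p can be too small.

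**Figure D3:**
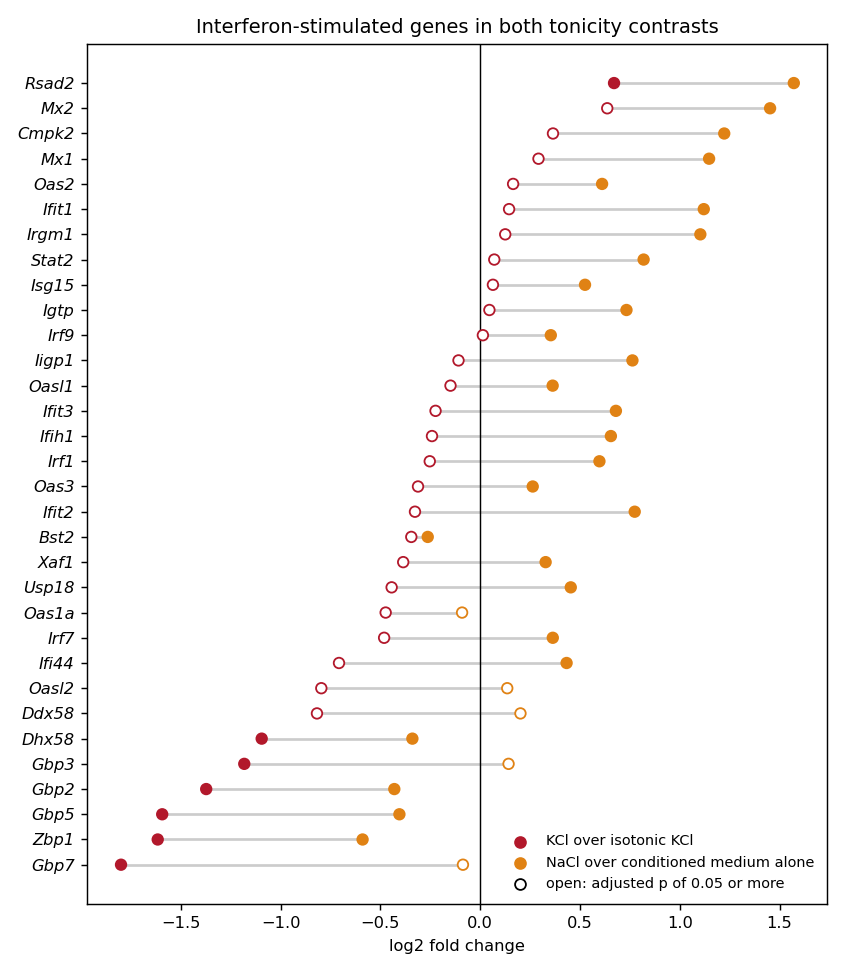
Log2 fold changes of 32 of the 33 interferon-stimulated genes tested in both contrasts: KCl over isotonic KCl in red and NaCl over conditioned medium alone in orange, with open points where adjusted p was 0.05 or more. The orange point lies to the right of the red one for every gene plotted, from Gbp7 at the bottom (−1.80 and −0.09) to Rsad2 at the top (0.67 and 1.57).

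Of 23 target genes of NRF2, the transcription factor of the antioxidant response, 6 rose with KCl and 0 fell. Over all genes 3.62% rose and 5.84% fell, and the median log2 fold change of the NRF2 list was 0.41. Gclc, the catalytic subunit of the enzyme that limits glutathione synthesis, had 289.7, 338 and 389 CPM with KCl and 105, 66.1 and 77.5 CPM with isotonic KCl (log2 fold change 2.04, SE 0.21, adjusted p = 0.00430). The KCl libraries did not overlap the isotonic ones. Hmox1, which encodes heme oxygenase 1, had 6868, 5986 and 6821 CPM with KCl and 3208, 2936 and 3297 CPM with isotonic KCl (log2 fold change 1.07, SE 0.15, adjusted p = 0.00887), and lost its call without KCl library 1 or isotonic library 3 (adjusted p = 0.0801 and 0.0741). Osgin1, an oxidative stress-induced gene, had 52.7, 45.6 and 61.3 CPM with KCl and 30.9, 23.9 and 25.9 CPM with isotonic KCl (log2 fold change 0.99, SE 0.18, adjusted p = 0.0203; adjusted p = 0.0649 to 0.118 without KCl library 1 or 3 or isotonic library 3, and 0.0504 under total-count scaling). Srxn1 (0.87), Gclm (0.61) and Nqo1 (0.74) also rose. With NaCl, 20 of 24 rose and 0 fell, where 23.2% of all genes rose, and Gclc had 398 and 433 CPM with NaCl and 73.5, 78.4 and 84.8 CPM in conditioned medium alone (log2 fold change 2.41, adjusted p = 2.03e-17). The 6 that rose with KCl became 1 without KCl library 1, 3 without KCl library 2, 2 without KCl library 3, 3 without isotonic library 2 and 1 without isotonic library 3, and total-count scaling gave 3.

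Genes of the integrated stress response, which ATF4 drives when amino acids run short or proteins misfold, went the other way. Of 22 tested, 0 rose and 5 fell, where 3.62% of all genes rose and 5.84% fell, at a list median of −0.44. Chac1, which degrades glutathione, had 0.806, 1.34 and 1.62 CPM with KCl and 14.7, 11.5 and 14.8 CPM with isotonic KCl (log2 fold change −3.43, SE 0.29, adjusted p = 0.00247). These are 12, 15 and 26 counts with KCl against 247, 153 and 226 with isotonic KCl, so the KCl values are coarse. Trib3, a pseudokinase induced by ATF4 and CHOP, had 4.97, 4.64 and 4.44 CPM with KCl and 18.9, 33.2 and 24.9 CPM with isotonic KCl (log2 fold change −2.45, SE 0.24, adjusted p = 0.00358). Vldlr, a lipoprotein receptor, had 3.16, 2.76 and 2.50 CPM with KCl and 9.09, 5.79 and 6.31 CPM with isotonic KCl (log2 fold change −1.33, SE 0.25, adjusted p = 0.0234) and lost its call without any 1 library other than isotonic library 1 or 2 (adjusted p = 0.0788 to 0.106). Stc2 (−2.02, adjusted p = 0.0324) and Aldh18a1 (−1.22, adjusted p = 0.0432) were the other 2, whereas Atf4 (0.36, adjusted p = 0.521) and Ddit3, which encodes CHOP (−0.49, adjusted p = 0.141), did not pass. The count of 5 became 2 without any 1 of the KCl libraries or without isotonic library 3. In medium alone, Chac1 was at 1.39, 2.03 and 1.92 CPM and Trib3 at 3.98, 3.505 and 3.72 CPM, nearer to the KCl than to the isotonic level. With NaCl, 7 of 22 genes of the list rose and 5 fell, near the shares over all genes (23.2% higher and 23.5% lower).

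Of 21 genes of glutamine, proline and arginine metabolism, 2 rose and 3 fell, where 3.62% of all genes rose and 5.84% fell. Glul, glutamine synthetase, led them. It had 497, 425 and 478 CPM with KCl and 118, 98.8 and 104 CPM with isotonic KCl, without overlap (log2 fold change 2.13, SE 0.15, adjusted p = 0.00170), and rose in every setting tried. With NaCl it had 469.7 and 494 CPM, against 189, 178 and 180.1 CPM in medium alone (log2 fold change 1.41, adjusted p = 4.67e-15). Arg2, the mitochondrial arginase, rose (0.58, adjusted p = 0.0445). Pycr1, the last enzyme of proline synthesis, had 0.537, 0.624 and 0.875 CPM with KCl and 2.44, 3.53 and 2.63 CPM with isotonic KCl (log2 fold change −2.04, SE 0.35, adjusted p = 0.0173), on 7 to 14 counts with KCl and 40 to 47 with isotonic KCl. Slc1a4, a carrier of serine and alanine, had 5.64, 5.35 and 5.69 CPM with KCl and 11.3, 11.7 and 9.92 CPM with isotonic KCl (log2 fold change −0.98, SE 0.17, adjusted p = 0.0191). Slc7a2, an importer of arginine, fell (−0.80, adjusted p = 0.0201). Leaving out any 1 KCl library or isotonic library 3 left 1 of these genes higher, and 0 or 1 lower.

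Of 20 alternative activation markers, 0 rose and 5 fell, where 3.62% of all genes rose and 5.84% fell, at a list median of −0.31. Ccl22, a chemokine that draws regulatory T cells, had 18.7, 13.3 and 17.1 CPM with KCl and 45.3, 40.4 and 44.8 CPM with isotonic KCl (log2 fold change −1.40, SE 0.17, adjusted p = 0.00660). Socs3, a feedback inhibitor of cytokine signalling, had 114, 106 and 140.2 CPM with KCl and 374, 274 and 313 CPM with isotonic KCl (log2 fold change −1.41, SE 0.18, adjusted p = 0.00767). Without KCl library 1 or isotonic library 3 their adjusted p was 0.0502 and 0.0535 for Ccl22 and 0.0713 and 0.0537 for Socs3. Mmp9, a matrix protease, had 15.9, 13.4 and 15.1 CPM with KCl and 31.9, 26.5 and 28.8 CPM with isotonic KCl (log2 fold change −0.96, SE 0.15, adjusted p = 0.0145), with an adjusted p of 0.0525 to 0.0959 without any 1 KCl library or isotonic library 3. Msr1 (−0.69) and Socs1 (−1.24) were the other 2 that fell. Mrc1, the mannose receptor and a common marker of this state, had 200.5, 231 and 170.1 CPM with KCl and 174, 198 and 170.5 CPM with isotonic KCl, with overlapping groups (log2 fold change 0.15, SE 0.15, adjusted p = 0.595). Arg1 had 0 or 1 count in each of the 6 libraries and was not tested. The count of 5 became 0 without KCl library 1 or isotonic library 3 and 2 without KCl library 2 or 3.

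In the other lists few members passed, and several counts lie near the shares over all genes, 3.62% higher and 5.84% lower. Immediate early genes had 3 of 23 lower (Egr1 −1.45, Ier2 −1.42 and Fos −0.74), inflammasome genes 3 of 18 lower (Gsdmd −0.78, Txnip −0.88 and Il1rn −0.64), and MHC class II and costimulation genes 3 of 14 lower (Cd80 −0.79, Cd83 −0.77 and Cd274 −1.23). The NF-kB list had 2 of 22 lower (Malt1 −0.77 and Irak3 −1.12). Heat shock chaperones had 2 of 16 higher (Dnajb4 1.05 and Bag3 0.61), actin and SRF target genes 2 of 18 higher (Tpm1 0.67 and Myl9 1.01), and cell cycle genes 2 of 33 higher (Mcm6 0.91 and Mcm7 0.67). Among 20 cell death genes, those that passed included Bcl2l11, which encodes the pro-apoptotic BIM and rose (1.20), and Mlkl, which fell (−1.06). There was 1 call each in the unfolded protein response (Herpud1 −0.66), cholesterol (Acat2 0.79) and glycolysis and HIF1 (Pdk1 −0.90) lists. Lysosomal genes (31 tested), nuclear genes of oxidative phosphorylation (37), mitochondrially encoded genes (12), ribosome biogenesis factors (24) and histones (5) had 0 calls by edgeR. At an unadjusted p under 0.05 they had 6, 1, 2, 2 and 0 members in that order, and DESeq2 called 3 lysosomal genes, 2 higher and 1 lower, and 1 mitochondrial gene as lower. With the length slope as covariate edgeR called 7 lysosomal genes higher and 5 lower, 8 nuclear genes of oxidative phosphorylation higher and 2 lower, 2 mitochondrial genes higher and 3 lower, 5 ribosome biogenesis factors higher and 3 lower, and 3 histones higher. The fit with all 17 libraries called 2 lysosomal genes higher and 5 lower, 2 nuclear genes of oxidative phosphorylation and 3 mitochondrial genes lower, and 2 ribosome biogenesis factors higher and 3 lower. Without KCl library 1, the immediate early, inflammasome, MHC, NF-kB, heat shock, actin, cell cycle, cell death, unfolded protein, cholesterol and glycolysis lists had 0 calls in these directions.

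**Figure D4:**
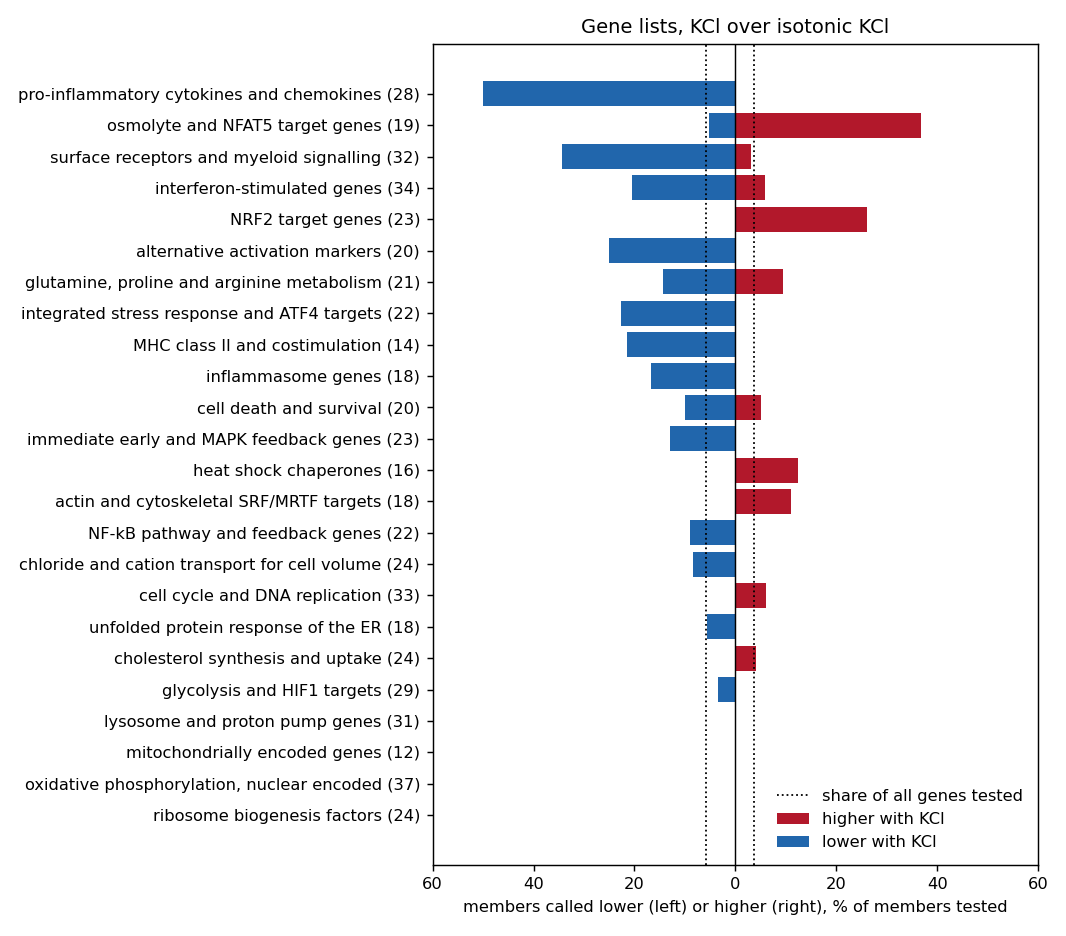
Share of tested members called higher (red, right) or lower (blue, left) with KCl than with isotonic KCl, for the 24 pathway lists with at least 8 tested members, whose number is in brackets, and dotted lines at the shares over all genes tested (3.62% and 5.84%). Cytokines and chemokines have the longest bar, at 50% lower, and osmolyte and NRF2 genes the longest bars to the right.

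Outside the lists, the highest and lowest fold changes among genes with at least 10 CPM added several transporters, enzymes and receptors. Scgb1a1, a secretoglobin best known from airway club cells, had 16.4, 12.8 and 15.2 CPM with KCl and 1.25, 1.504 and 1.77 CPM with isotonic KCl (log2 fold change 3.30, SE 0.23, adjusted p = 0.00170). It was at 1.73 and 0.972 CPM with NaCl and 1.39, 1.17 and 0.640 CPM in medium alone, and thus high in the KCl libraries alone among these 4 groups. The isotonic knockout libraries, at 5.35, 4.89 and 3.34 CPM, lay between the KCl and the floxed isotonic libraries. Xcr1, a chemokine receptor typical of cross-presenting dendritic cells, had 16.6, 20.9 and 14.4 CPM with KCl and 2.56, 5.56 and 2.30 CPM with isotonic KCl (log2 fold change 2.33, SE 0.36, adjusted p = 0.0132). It was the 1 call among 3 tested of 8 dendritic markers, whose summed level was 17.6 to 25.2 CPM with KCl, against 5.39 to 7.82 CPM with isotonic KCl. Xcr1 is itself in that sum and made up most of it with KCl, so the sum does not stand apart from this gene. The part of such cells was not tested. The adjusted p of Xcr1 was 0.0606 to 0.0748 without KCl library 1 or 2 or isotonic library 3. Xcr1 also rose with NaCl (log2 fold change 1.74, adjusted p = 0.000991). There it had 5.5 and 3.72 CPM with NaCl, against 0.379, 1.66 and 2.09 CPM in conditioned medium alone. Tlcd2, Ndrg2 and Gfod1 rose by 2.42, 2.26 and 2.16 on the log2 scale, without overlap, at 11.9 ± 2.80, 22.0 ± 2.52 and 12.7 ± 2.51 CPM with KCl and 2.22 ± 0.649, 4.57 ± 0.571 and 2.81 ± 0.469 CPM with isotonic KCl (SD, n = 3 each). Tlcd2 overlaps the host gene of a microRNA on its strand.

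Vnn3, a vanin that splits pantetheine, had 3.16, 2.50 and 2.62 CPM with KCl and 34.3, 21.4 and 28.8 CPM with isotonic KCl and was among the deepest falls (log2 fold change −3.34, SE 0.24, adjusted p = 0.00170). Slc13a3, a sodium-coupled dicarboxylate transporter, had 6.38, 3.48 and 5.81 CPM with KCl and 50.8, 37.8 and 42.3 CPM with isotonic KCl (log2 fold change −3.04, SE 0.26, adjusted p = 0.00247). Slc28a2, a concentrative nucleoside transporter, had 7.12, 7.58 and 8.44 CPM with KCl and 60.4, 55.5 and 55.5 CPM with isotonic KCl (log2 fold change −2.88, SE 0.15, adjusted p = 0.00170), with a pseudogene in its span. Csf3r, the receptor for granulocyte colony-stimulating factor, had 18.2, 16.8 and 23.3 CPM with KCl and 160.0, 89.0 and 116 CPM with isotonic KCl (log2 fold change −2.63, SE 0.26, adjusted p = 0.00355), alongside the lower level of its ligand gene Csf3. All 4 were also lower with NaCl than in medium alone, by 2.44, 3.46, 2.52 and 2.01 on the log2 scale.

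Most genes called with KCl were called with NaCl in the same direction. Of 12666 genes tested in both contrasts, 1201 were called with KCl and 6093 (48.1%) with NaCl. The same direction was found for 1037 genes, 392 higher and 645 lower, which is 86.3% of the KCl calls and 17% of the NaCl calls. Of all genes tested in both, 24.3% were called higher and 23.9% lower with NaCl. At 2-fold or more in both, 312 genes were shared, 48.8% of 639 with KCl and 33.3% of 937 with NaCl. The NaCl contrast called 6245 of 13378 genes (46.7%), 3107 higher and 3138 lower, with 1088 (8.13%) at least 2-fold apart, and a split of 49.8% higher that was 39.2% under total-count scaling. Another 156 genes were called with KCl and not with NaCl, among them Il6, Gbp7, Gbp3, Slc1a4, Vldlr and Scgb1a1, and 8 were called in opposite directions.

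**Figure D5:**
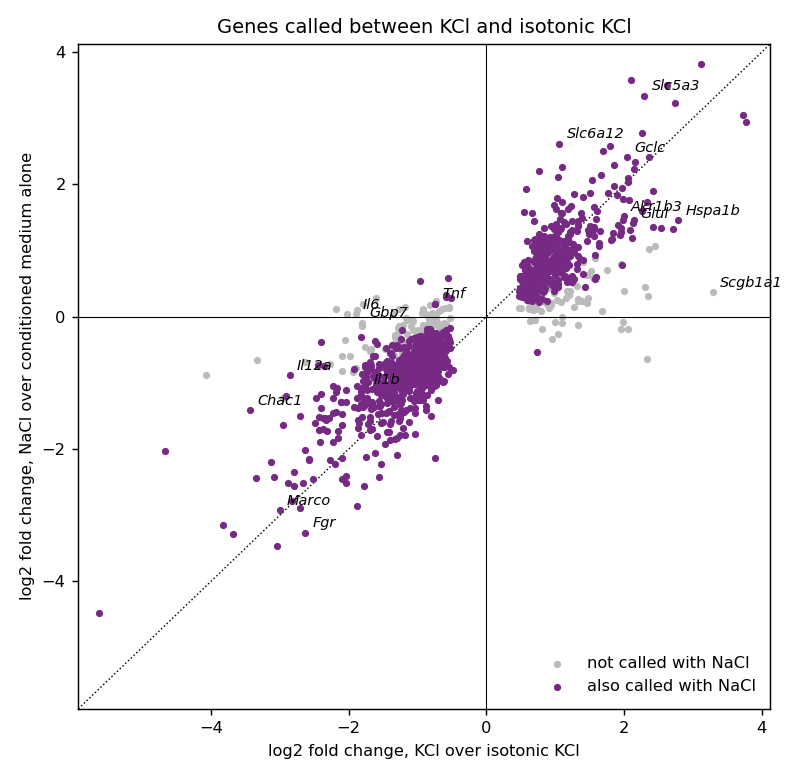
Log2 fold change of NaCl over conditioned medium alone (vertical) against KCl over isotonic KCl (horizontal) for the 1201 genes called between KCl and isotonic KCl and tested in both, with the diagonal dotted and 15 genes named. Purple points (1045 genes) were also called with NaCl and lie mostly in the lower left and upper right of the plot, while Scgb1a1, Il6 and Gbp7 lie near the horizontal line at 0.

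The 8 genes of opposite direction were Grem1, Tnf, Ralgds, Clec4e, Ifi203, Ifi47 and Parp9, lower with KCl and higher with NaCl, and Adssl1, higher with KCl and lower with NaCl. They were named after their values were seen. Clec4e, the C-type lectin receptor Mincle, had 2275 ± 138 CPM with KCl and 3418 ± 73.7 CPM with isotonic KCl (SD, n = 3 each), with log2 fold changes of −0.58 with KCl and 0.33 with NaCl. In the test of the difference itself, 75 of 13958 genes (0.537%) passed, 17 higher (0.122%), 58 lower (0.416%) and 42 (0.301%) at least 2-fold, and 1348 had an unadjusted p under 0.05. The 75 became 0 without NaCl library 1 or 2 or conditioned medium library 1 or 3, 2 without conditioned medium library 2, 5, 20 and 45 without KCl library 1, 2 and 3, 123 without isotonic library 1 and 3 without isotonic library 3. Strain, any batch, the medium with KCl and the sodium that NaCl adds stay in this difference too.

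No C57BL/6J library here had isotonic KCl, and no floxed library had KCl without that label. C57BL/6J and floxed cells therefore cannot be compared in the same KCl medium. Of 6 genes tested from a list drawn up for mouse substrain and background, 1 passed, where 9.46% of all genes passed. So few genes cannot show how much strain contributes. The 1 was Wdfy1, at 21.5 ± 1.76 CPM with KCl and 12.5 ± 1.29 CPM with isotonic KCl (SD, n = 3 each; log2 fold change 0.79, adjusted p = 0.0269), and it was also higher with NaCl than in medium alone. Nnt, which C57BL/6J mice carry in a truncated form, was low in both groups (0.671, 2.23 and 1.44 CPM with KCl and 1.01, 0.827 and 1.31 CPM with isotonic KCl). The isotonic Kcnj2 knockout libraries carry the same floxed allele and had the same medium label, so strain and tonicity change together against them too. With these in place of the floxed libraries, 3259 genes were called and all but 4 of the 41 named genes that had passed stayed called in the same direction. The 4 were Mmp9, Pycr1, Slc1a4 and Vldlr, at log2 fold changes of −0.11, −1.06, −0.05 and −0.35 (adjusted p = 0.671, 0.0887, 0.905 and 0.318). Kcnj2 was among those that stayed called, but its deletion fixed that call in advance. The KCl libraries were also the same ones by which many of the named genes were chosen. That so many stayed called is therefore partly built in. In that comparison Slc5a3 had 129, 140.0 and 98.9 CPM with KCl, against 22.6, 20.1 and 21.1 CPM in the knockout, and Il1b 703, 691 and 707 CPM with KCl, against 2109, 2158 and 1979 CPM in the knockout.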

How the data were processed

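RNA of 17 samples was sequenced. The authors deposited raw counts for each Ensembl gene, with 1 column per sample, named by its title. Per the submitters' processing notes DESeq2 1.30.1 was used, with no role stated. The sources used here name no aligner, counter, genome build or strand setting. Symbols and positions came from GENCODE M21 on GRCm38, and 260 identifiers without a symbol held 0.0121% of counts.

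Each contrast was fitted alone with edgeR 4.0.16 in R 4.3.3 (quasi-likelihood F test on TMM-scaled counts, robust dispersion, filterByExpr by group). P-values were adjusted by Benjamini and Hochberg's method across every gene that passed the filter, and the threshold was 0.05. The difference between the contrasts is the interaction over 11 libraries. Its fit gives each gene a single spread for all groups in it, although their spread differed. The biological coefficient of variation was 24.4% in the KCl contrast, 5.64% in the NaCl contrast and 18.8% in this fit. The SE of a difference can therefore be too small. For Tnf it was 0.136, against 0.138 for KCl over isotonic KCl alone. SE is that of the log2 fold change, taken from the F statistic. A gene at 0 counts is below 3 counts in that library, from counting error alone. No replicate pair agreed within sampling noise.

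The members, the 26 pathway and 11 marker lists and the tests were chosen with earlier results of these data known. Named genes were 16 chosen by hand, the 8 highest and 8 lowest called protein-coding genes whose mean reached 10 CPM in either group and whose groups did not overlap, and up to 3 called genes with the smallest p in each of the 8 lists with the largest share called among those with at least 8 tested members. Other genes were named as list members, and a few members are counted but not reported by name here. Residuals of same-numbered libraries correlated at −0.235 to 0.542, over 0.1 in 1 of 3 pairs, so the numbers do not pair the samples. Alternatives were DESeq2 1.42.0, RLE or total-count scaling, no or stricter low-count filters, a replicate block, no robust dispersion, all 17 libraries in the fit, the length slope as covariate, each library left out and, chosen after seeing the data, the knockout in place of the floxed group. The fits were also run on counts simulated with a common spread for all genes. That run cannot show how calls hold where single libraries drift apart, as they do here.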

Additional observations from a re-analysis of the deposited data

Results flagged for a closer look

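A test of the difference between the contrasts (KCl over isotonic KCl, minus NaCl over conditioned medium alone) marked 75 genes at an adjusted p under 0.05 by edgeR, and 10 of them are named above. The named genes that moved further down, or less far up, with KCl were Il12a (−1.97), Trib3 (−1.72), Gbp7 (−1.71), Slc6a12 (−1.55), Gbp3 (−1.31), Il1a (−1.24), Zbp1 (−1.01), Tnf (−0.94) and Fpr2 (−0.73), each as a difference of log2 fold changes. Scgb1a1 stood on the other side at 2.94. For Slc6a12 both contrasts were rises (1.06 with KCl and 2.62 with NaCl), for Il1a both were falls (−2.48 and −1.23), and for Tnf the directions were opposite (−0.75 and 0.20). The 75 calls became 0 without NaCl library 1 or 2 or without conditioned medium library 1 or 3. No group held the 4 or more libraries needed to look for a single library apart.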

How the results depend on the processing

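The 45 named genes that were tested had 41 calls in KCl against isotonic KCl. Of these, 25 kept their direction and call in all 16 settings, among them Slc5a3, Akr1b3, Hspa1b, Glul, Gclc, Il1b, Il1a, Il12a, Marco and Chac1, and 16 lost the call in at least 1, of which 8 lost it in a setting other than leaving out a library: Slc38a2 and Osgin1 under total-count scaling, Il6 with no low-count filter (adjusted p = 0.0601, 0.0504 and 0.101), and the others under the replicate block or against the knockout. Signs turned only for Nos2 (log2 fold change −0.084 with total-count scaling, −0.018 with no low-count filter, −0.0035 with all 17 libraries, and −0.35 to 0.74 with 1 library left out) and Slc6a6 (−0.14 to 0.65 with 1 library left out), neither of which was called. The causes of the shifts below were not tested.

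For KCl against isotonic KCl, the counts of called, higher, lower and at least 2-fold genes were 1218, 466, 752 and 656. DESeq2 gave 2108, 923 and 1185 for the first 3. Total-count scaling gave 282 higher, 29% of its calls against 38.3%. All 17 libraries in the fit gave 4076, 1812, 2264 and 1202, the length slope as covariate 4709, 2403, 2306 and 1055, and the knockout in place of the floxed group 3259, 1583, 1676 and 1258. Leaving out 1 library gave 80 to 1437, 25 to 581, 55 to 856 and 80 to 682. For NaCl against medium alone, all 17 libraries gave 3084, 1417 and 1667, and leaving out 1 library 4845 to 6181, 2411 to 3115, 2434 to 3066 and 939 to 1086. For the difference, the main counts were 75, 17, 58 and 42, DESeq2 gave 317, 100, 217 and 119, total-count scaling 25, 7, 18 and 19, no low-count filter 122, 32, 90 and 82, all 17 libraries 245, 80, 165 and 96, and leaving out 1 library 0 to 123, 0 to 37, 0 to 86 and 0 to 60. The overlap of calls was 1624 genes with DESeq2, 2075 (50.9%) with all 17 libraries, 312 (48.8%) at 2-fold or more, and 77 to 1254 (79.5% to 96.2%) without 1 library.

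A replicate block gave 499 called genes for KCl against isotonic KCl, 156 higher, 343 lower and 408 at least 2-fold, an overlap of 471 genes and, for the difference, 1 gene, higher, with 0 lower and 1 at least 2-fold. The numbers do not pair these samples, and under the block Slc38a2, Tnf and Slc1a4 lost their calls (adjusted p = 0.0654, 0.0650 and 0.0605). Depth limits genes of few counts: Pycr1 had 7 to 14 counts with KCl and Chac1 12 to 26.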
